A study of Mus musculus with 8 samples.

Results

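The genes of 10 ligands of the tumour necrosis factor (TNF) superfamily, out of 22350 protein-coding genes of the mm9 annotation, were examined in peak lists of dendritic cells (DCs) stimulated through dectin-1. They were Tnf, Lta, Ltb, Tnfsf8, Tnfsf15, Tnfsf4, Tnfsf18, Tnfsf9, Tnfsf14 and Tnfsf13b, taken by name, and they lie at 5 loci. For each gene, every NFATc2 summit within 100 kb of a transcription start site (TSS) was collected. Every H3K4me3 peak that overlapped the gene or lay within 1 kb of a TSS was collected as well. The cells were D1 cells, a growth factor-dependent line of long-term splenic DCs from C57BL/6 mice. NFATc2 (NFAT1) was recovered through a V5 tag from D1 cells that stably expressed the tagged protein from a lentivirus, after 30 min of 10 μg/ml curdlan, a β-glucan bound by dectin-1. H3K4me3, a histone mark found mainly at the starts of active genes, was profiled in 3 conditions, which were non-treated (NT) cells, cells stimulated with the same dose of curdlan for 2 h, and cells stimulated for 2 h in the presence of the calcineurin inhibitor FK506. A condition was represented by 1 ChIP and 1 input library. Differences between conditions therefore could not be set against a replicate spread, and none was given a p-value. The p-values below are those of MACS, the peak caller, for a peak against its own input. The tagged protein came from a transgene and D1 is a single line, and NFATc2 in non-treated or FK506-treated cells was not analysed here.

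TNF superfamily ligands are mostly trimeric proteins made at the cell surface, some of which are cleaved to a soluble form. They act on receptors of the TNF receptor superfamily on neighbouring cells and serve inflammation, lymphoid tissue organisation and T and B cell costimulation. NFAT proteins are kept in the cytoplasm by phosphorylation until calcium activates calcineurin, and they then bind DNA at a core GGAAA, often next to AP-1.

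The NFATc2 list rested on 14377535 ChIP tags and held 9438 peaks. The H3K4me3 lists rested on 16662316 (NT), 21289349 (curdlan) and 19468498 (FK506) ChIP tags and held 15799, 14872 and 14878 peaks. A tag is a mapped read counted once per position, and the level of a peak is given as its tags or as its normalised tag count, the tags per 1000000 ChIP tags of the library. The ratio of ChIP to input tags was 1.38, 2.29 and 1.96 in the H3K4me3 conditions. The fold enrichment, the ratio of tags at a peak to those predicted from the input, was 1.66 times higher with curdlan than in NT at the median gene. Of the DC and antigen presentation markers, 11 of 11 found in the annotation had an H3K4me3 peak in each list. Of 18 markers of other cell types, 5 had one in NT, which were Cd3d, Cd4, Lck, Cd79a and Pax5, 5 had one with curdlan and 4 with FK506. The part of other cells in the results was not tested.

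The sequences at 7 NFATc2 summits are shown first. They are the summits within 1 kb of a TSS, the summits with the most tags at each of the 4 loci with more than 1 of the genes, and the summit nearest to Lta. Each is 100 bp to either side of the summit in mm9, read 5′ to 3′ on the strand of the gene named, and the Tnf sequence ends just before the TSS. Capitals mark GGAAAA or its reverse complement TTTTCC, the motif that the study reported for NFATc2, and TGANTCA, the AP-1 consensus.
Tnf, 90 bp upstream of the TSS, chr17:35338953-35339142, minus strand: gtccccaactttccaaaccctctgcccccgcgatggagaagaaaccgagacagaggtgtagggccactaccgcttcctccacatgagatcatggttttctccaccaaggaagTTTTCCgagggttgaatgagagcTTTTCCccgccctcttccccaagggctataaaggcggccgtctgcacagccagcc
Lta, 3106 bp upstream, chr17:35345302-35345502, minus strand: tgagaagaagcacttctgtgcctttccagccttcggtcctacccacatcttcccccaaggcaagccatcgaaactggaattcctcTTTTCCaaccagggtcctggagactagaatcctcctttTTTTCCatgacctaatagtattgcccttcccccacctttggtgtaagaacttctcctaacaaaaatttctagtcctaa
Tnfsf8, 9201 bp upstream, chr4:63531482-63531682, minus strand: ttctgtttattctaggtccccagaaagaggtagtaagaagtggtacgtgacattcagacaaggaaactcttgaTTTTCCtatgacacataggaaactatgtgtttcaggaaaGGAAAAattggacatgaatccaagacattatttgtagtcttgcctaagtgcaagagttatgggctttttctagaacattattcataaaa
Tnfsf18, 22926 bp downstream of the TSS, chr1:163447612-163447812, plus strand: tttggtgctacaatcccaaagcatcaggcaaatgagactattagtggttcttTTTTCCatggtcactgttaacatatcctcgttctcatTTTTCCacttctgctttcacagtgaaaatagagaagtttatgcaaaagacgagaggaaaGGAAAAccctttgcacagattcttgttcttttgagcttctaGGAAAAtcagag
Tnfsf14, 152 bp upstream, chr17:57333664-57333864, minus strand: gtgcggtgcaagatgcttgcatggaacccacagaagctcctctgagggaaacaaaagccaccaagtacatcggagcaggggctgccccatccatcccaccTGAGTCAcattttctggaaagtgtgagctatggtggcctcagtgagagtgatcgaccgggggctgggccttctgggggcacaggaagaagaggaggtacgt
Tnfsf14, 11202 bp downstream of the TSS, chr17:57322310-57322510, minus strand: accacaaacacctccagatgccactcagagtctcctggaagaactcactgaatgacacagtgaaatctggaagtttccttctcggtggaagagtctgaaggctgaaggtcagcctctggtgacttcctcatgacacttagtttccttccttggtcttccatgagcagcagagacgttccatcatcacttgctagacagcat
Tnfsf15, 376 bp upstream, chr4:63406423-63406623, minus strand: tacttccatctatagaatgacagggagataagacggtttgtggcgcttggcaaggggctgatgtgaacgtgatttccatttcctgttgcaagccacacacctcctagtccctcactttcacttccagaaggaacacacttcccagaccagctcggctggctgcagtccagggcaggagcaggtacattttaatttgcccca

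The Tnf, Lta and Tnfsf8 sequences each held 2 copies of GGAAAA and the Tnfsf18 sequence held 4. The upstream Tnfsf14 sequence held TGAGTCA at the summit itself and no GGAAAA. The downstream Tnfsf14 sequence and the Tnfsf15 sequence held neither. The shorter core GGAAA or its reverse complement TTTCC, which was not marked, does occur in both Tnfsf14 sequences and in the Tnfsf15 sequence. These letters are descriptions of the sequence and not mapped contacts of the protein.

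NFATc2 summits lay within 100 kb of the TSS of each of the 10 genes, against 55.4% of all protein-coding genes. Within 10 kb, 8 of the 10 had a summit, against 16.3%. Within 1 kb, Tnf, Tnfsf14 and Tnfsf15 had one, against 5.29%. At least 5 summits within 100 kb were found at 8 of the 10 genes, against 6.81% of genes. The genes share loci and therefore summits, so they are not 10 separate observations. The 36 distinct summits made 58 pairs of gene and summit, and 17 of the 36 lay near more than 1 of the genes. In the plot of summits per gene, Tnfsf8 had 12 summits, Tnfsf18, Tnfsf9 and Tnfsf14 had 8 each, Tnf, Lta, Ltb and Tnfsf15 had 5 each, and Tnfsf4 and Tnfsf13b had 1 each. The median over protein-coding genes was 1 and the highest number was 16, and 0.0761% of genes had as many as Tnfsf8.

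**Figure D1:**
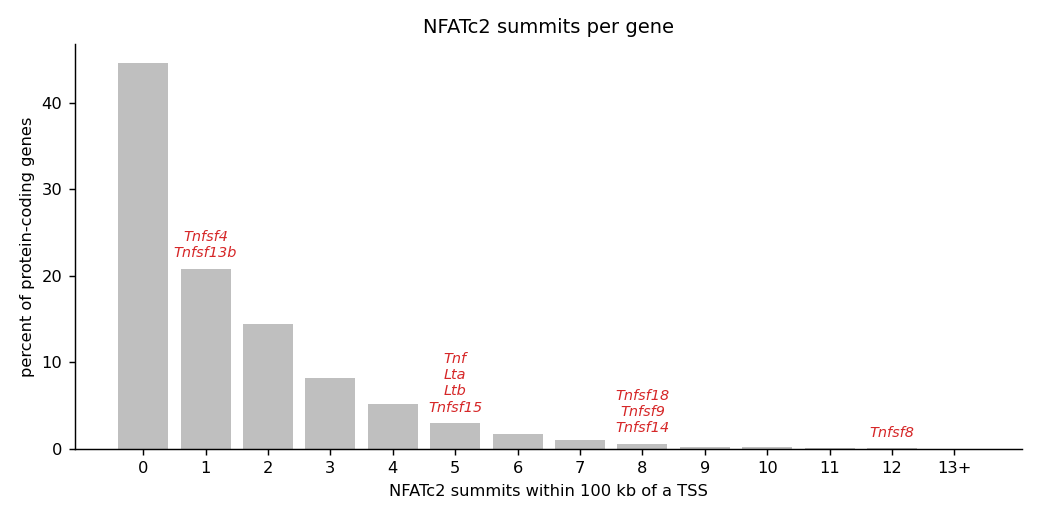
Percent of protein-coding genes (y axis) by the number of NFATc2 summits within 100 kb of a TSS (x axis, 13 or more in the last bar), with the 10 ligand genes written above the bar they belong to. Tnfsf8, with 12 summits, sits in the bar before the last, and Tnfsf4 and Tnfsf13b, with 1, sit at the median.

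Of the 36 summits, 27 were intergenic, 9 were intronic and 0 were exonic, against 46.9%, 47.6% and 5.48% of all summits. They had a median of 91.5 tags, from 23 to 489, while the median of all 9438 peaks was 63. At least 200 tags were found in 7 of the 36, against 6.27% of all peaks. The nearest protein-coding TSS was that of one of the 10 genes for 25 of the 36. No H3K4me3 peak overlapped the NFATc2 peak in any list at 25 of the 36, against 71.6% of all NFATc2 peaks. GGAAAA lay within 100 bp of 15 of the 36 summits, against 45.6% of all summits and 18.0% of windows 1 kb to either side of them. TGANTCA lay within 100 bp of 7, against 21.8% and 6.15%. Both lay within 100 bp of 1 of the 36, against 8.34% of all summits. A consensus NF-kB site lay within 100 bp of 0 of the 36 and at 5.04% of all summits, which says only that those letters were not in these windows.

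**Figure D2:**
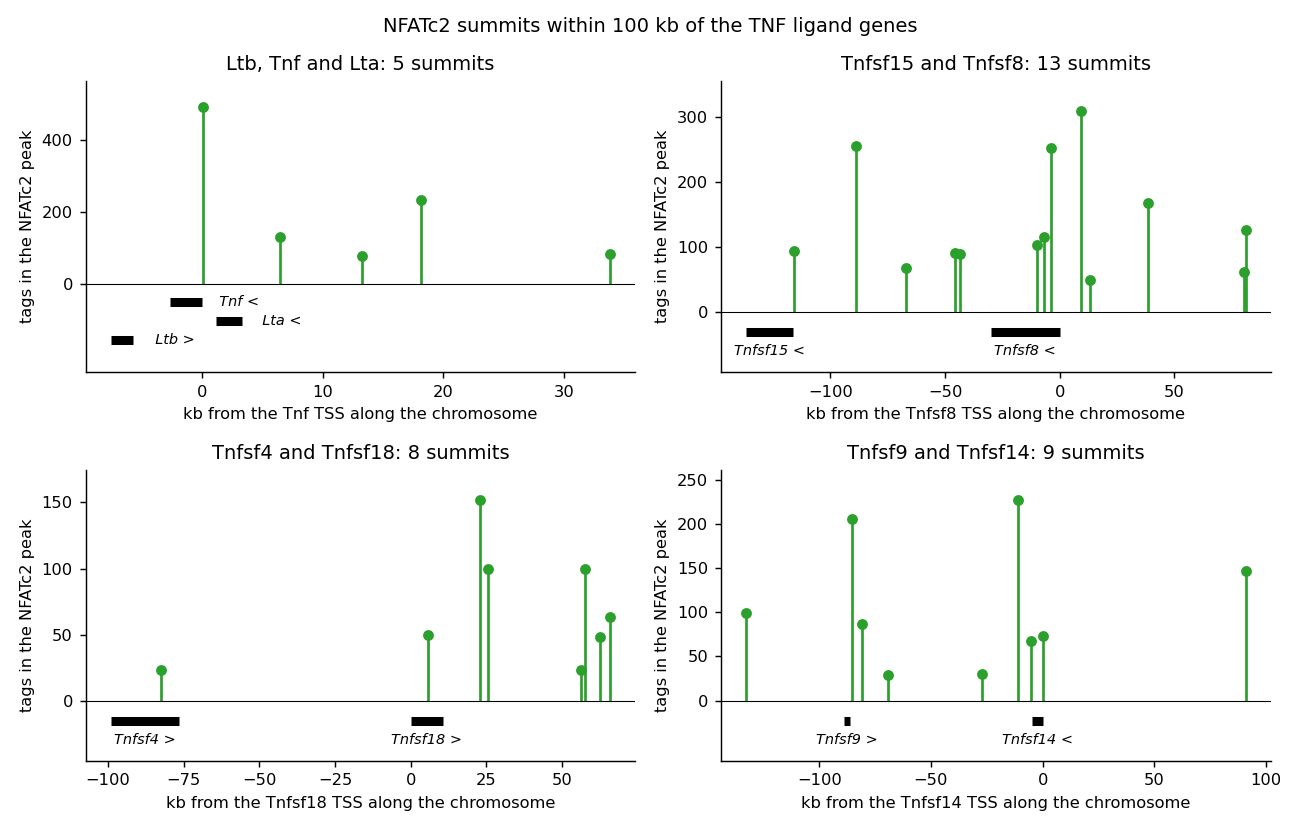
NFATc2 summits at the 4 loci that hold more than 1 of the ligand genes, as distance in kb along the chromosome from the TSS of Tnf, Tnfsf8, Tnfsf18 or Tnfsf14 (x axis) against the tags of the peak (y axis); black bars are the genes and arrowheads their direction. The tallest sites are at the Tnf TSS (489 tags), upstream of Tnfsf8 (309), beyond the end of Tnfsf18 (152) and beyond the end of Tnfsf14 (227).

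Ltb, Tnf and Lta encode lymphotoxin beta, TNF and lymphotoxin alpha and lie side by side on chromosome 17. Ltb spans 35331384 to 35333265 on the plus strand, Tnf 35336326 to 35338952 and Lta 35340110 to 35342296, both on the minus strand. The gap between Ltb and Tnf is 3.1 kb and that between Tnf and Lta is 1.2 kb. All 5 NFATc2 summits of the locus lay on the Lta side of the Tnf TSS. The summit 90 bp upstream of Tnf, in the gap to Lta, had 489 tags, was enriched 36.7-fold over the input (p-value 1.7e-69) and was rank 30 of the 9438 peaks by tags. Its peak ran from 35334844 to 35339726 and so covered all of Tnf, and it held 7 copies of GGAAAA, the nearest 12 bp from the summit. The summit 3106 bp upstream of Lta had 131 tags and a fold enrichment of 19.1, with GGAAAA 10 bp away. The other sites had 78, 233 and 84 tags and were nearest to the neighbouring genes Gm16181 and Atp6v1g2. GGAAAA lay within 100 bp of 4 of the 5 summits.

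The primers that the study used for ChIP-PCR at Tnf matched the genome at 1 place each. The forward primer, CCAAGGGTGGAGAGAGATGA, and the reverse primer, GGAGCCTCTGCCATATCTTG, bound a product of 200 bp from 35339695 to 35339894. This product lay 743 to 942 bp upstream of the Tnf TSS. The NFATc2 summit at 35339042 was outside it, and the NFATc2 peak reached 35339726, into the proximal end of the product.

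H3K4me3 at this locus was called as 2 peaks in NT, which became 1 peak in both stimulated conditions. In NT a peak of 1715 tags from 35329847 to 35334575 covered Ltb, and a peak of 2169 tags from 35334861 to 35340107 covered Tnf, with 285 bp between them. With curdlan a single peak ran from 35329705 to 35341041, with 3550 tags over 11337 bp. With curdlan and FK506 it ran from 35329737 to 35340597, with 3544 tags over 10861 bp. Only 0.195% of the curdlan peaks were as long. The called region thus spanned 10.3, 11.3 and 10.9 kb for NT, curdlan and FK506, and most of the difference lay at the Lta end. Called peaks were also longer after stimulation over the whole lists, with median lengths of 2371, 2575 and 2493.5 bp in the same order. Whether the longer span and the joined peaks here followed the number of ChIP tags per library was not tested. The normalised tag count over the region was 233 in NT (95% Poisson interval from 226 to 241), 167 with curdlan (161 to 172) and 182 with FK506 (176 to 188). The mark was therefore not higher over the region as a whole with curdlan, although the 1 merged peak held more tags than either NT peak alone. These and later intervals cover counting error only.

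Because of the merger, values per gene at this locus depend on the measure. The change was measured at the peak with the most tags, as the log2 ratio of its fold enrichment between lists, less the median of that ratio over all genes with a peak in both lists, which was 0.73 over 11298 genes for curdlan over NT and -0.27 over 11277 genes for FK506 over curdlan. By this measure Tnf was -1.03 and Ltb -0.29 for curdlan over NT. By normalised tag count, as a log2 ratio centred in the same way, Tnf was 0.48 and Ltb 0.82, and by tags per kb of peak they were -0.57 and -0.38. The fold enrichment of the merged peak belongs to its summit, which was at Ltb, and was 62.2 with curdlan and 40.8 with FK506, against 76.4 at Tnf and 45.7 at Ltb in NT. Lta had no peak in NT by the rule, since the NT peak ended 3 bp short of the gene. With curdlan the merged peak entered the 3′ part of Lta and ended 1255 bp short of its TSS, and with FK506 1699 bp short. No H3K4me3 peak reached the Lta TSS in any list.

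**Figure D3:**
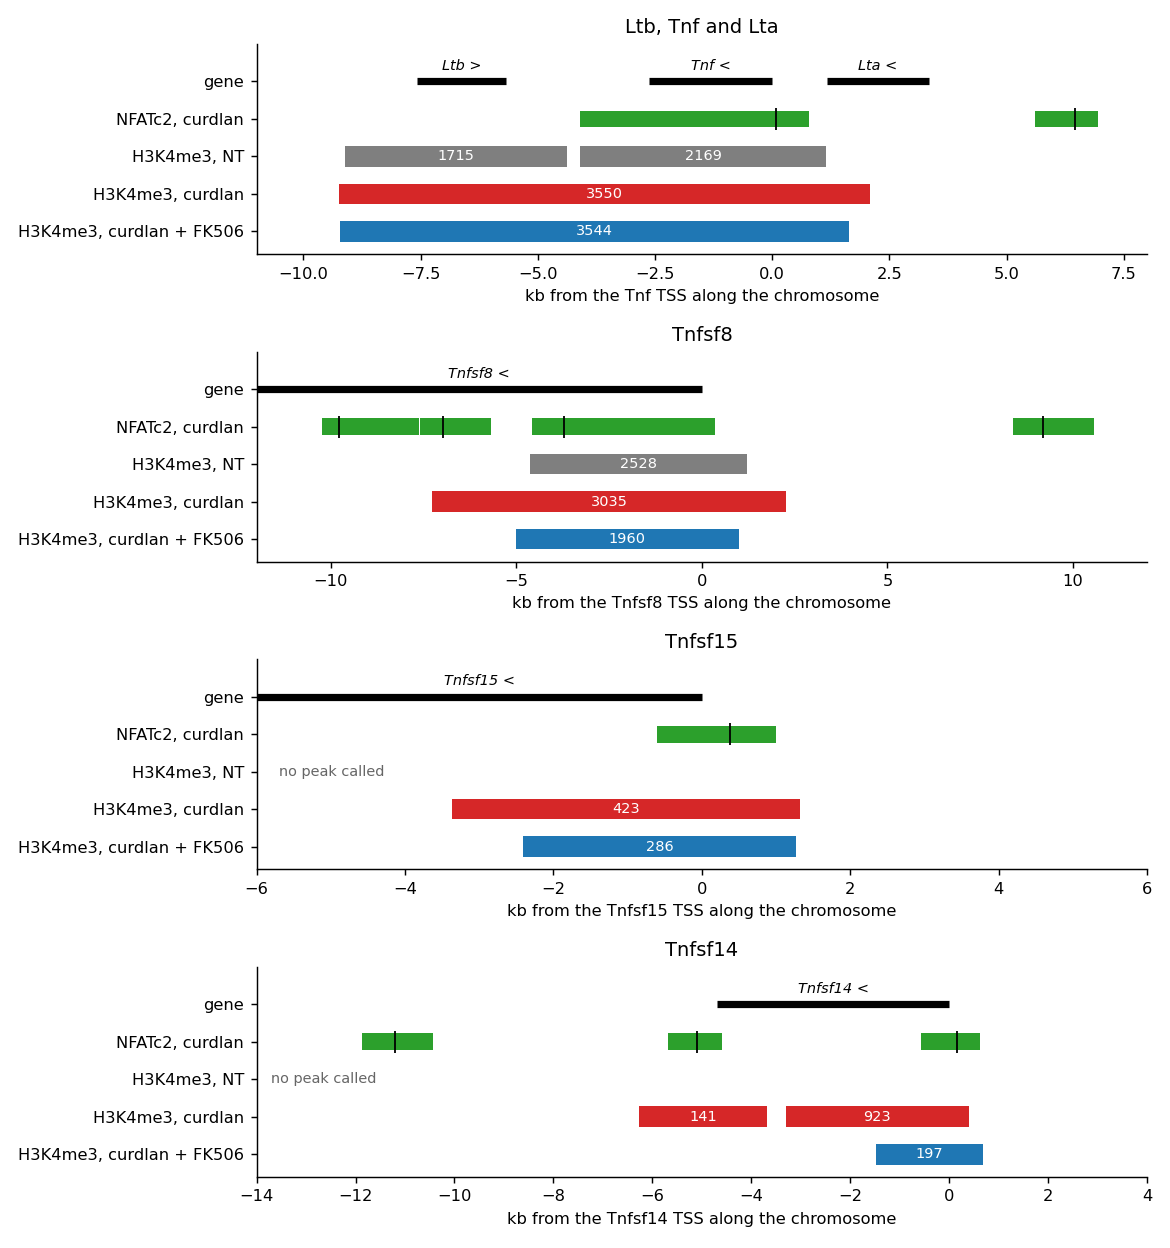
Extents of the peaks at the Ltb, Tnf and Lta locus, Tnfsf8, Tnfsf15 and Tnfsf14, in kb along the chromosome from the TSS of Tnf, Tnfsf8, Tnfsf15 or Tnfsf14 (x axis); rows are the genes (black, with direction), the NFATc2 peaks (green, summits as black ticks) and the H3K4me3 peaks in NT (grey), curdlan (red) and curdlan with FK506 (blue), with their tags. The NT peaks of 1715 and 2169 tags are joined in both stimulated conditions, Tnfsf15 and Tnfsf14 have no NT peak, and the Tnfsf14 peak is shorter with FK506, with 197 tags against 923.

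Tnfsf14 encodes LIGHT, a costimulatory ligand of the herpesvirus entry mediator and the lymphotoxin beta receptor. It spans 57328915 to 57333612 on the minus strand of chromosome 17, 81.7 kb from Tnfsf9, and Cd70, the gene of the CD27 ligand, lies between them. NFATc2 summits lay 152 bp upstream of the TSS (73 tags, fold enrichment 21.4, p-value 9.2e-20), 5105 bp downstream (67 tags) and 11202 bp downstream, beyond the gene (227 tags, fold enrichment 34.4, p-value 1.2e-65). No H3K4me3 peak was called at Tnfsf14 in NT, where the nearest one was 51.5 kb from the TSS. With curdlan a peak of 923 tags over 3688 bp covered the TSS (71.3-fold enrichment, p-value 8.1e-248). With curdlan and FK506 the peak had 197 tags over 2157 bp (12.6-fold enrichment, p-value 9.7e-12).

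The normalised tag count of the Tnfsf14 peak was 43.4 with curdlan (95% Poisson interval from 40.6 to 46.2) and 10.1 with FK506 (8.76 to 11.6). The ratio of FK506 to curdlan was 0.233, with an interval from 0.2 to 0.272. The centred log2 ratio of fold enrichment was -2.23, the second lowest of 11277 genes, and it was -2.05 by normalised tag count and -1.31 by tags per kb. With curdlan the peak reached 3298 bp into the gene, and with FK506 1475 bp. A second curdlan peak, from 57327344 to 57329921 at the 3′ end of the gene and over the NFATc2 summit 5105 bp downstream, had 141 tags but an FDR of 16.5%, and no peak was called there with FK506.

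Tnfsf15 encodes TL1A, the ligand of death receptor Tnfrsf25 on T cells, and Tnfsf8 encodes the CD30 ligand. They lie on the minus strand of chromosome 4, Tnfsf15 from 63385637 to 63406147 and Tnfsf8 from 63492342 to 63522381, with 86.2 kb and 5 NFATc2 summits of 68 to 255 tags between them. The Tnfsf15 summit 376 bp upstream of the TSS had 93 tags (8.97-fold enrichment, p-value 2.9e-11), and the next site, 27411 bp upstream, had 255 tags and a fold enrichment of 16.6. No H3K4me3 peak was called at Tnfsf15 in NT, with the nearest 111.6 kb away. A peak of 423 tags (fold enrichment 21.8, p-value 8.8e-47) covered the TSS with curdlan and one of 286 tags (fold enrichment 14.9, p-value 2.9e-30) with FK506. The normalised tag counts were 19.9 (95% Poisson interval from 18.0 to 21.9) and 14.7 (13.0 to 16.5), a ratio of 0.739 with an interval from 0.636 to 0.859. The centred log2 ratio of fold enrichment was -0.28, so Tnfsf15 was not among the genes called lower with FK506. By normalised tag count, 4.26% of the 11277 genes with a peak in both lists had a ratio as low. The called peak was 4690 bp long with curdlan and 3670 bp with FK506, and by tags per kb the centred log2 ratio was only -0.07.

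Tnfsf8 had the most NFATc2 sites of the 10 genes. The site 9201 bp upstream had 309 tags (37.4-fold enrichment, p-value 5.9e-80) and was the strongest of the 36 sites by p-value. Within the gene, intronic summits lay 3724, 6970 and 9766 bp downstream of the TSS, with 253, 115 and 103 tags. The H3K4me3 peak over the Tnfsf8 TSS was 5839 bp long in NT, 9557 bp with curdlan and 6022 bp with FK506. With curdlan it reached 7281 bp into the gene and took in the NFATc2 summit at 6970 bp, against 4632 bp in NT and 5018 bp with FK506. Its tags were 2528, 3035 and 1960, and its normalised tag counts 152, 143 and 101, so the longer curdlan peak did not have a higher normalised count than the NT peak. The fold enrichment was 33.6, 80.6 and 62.0. For curdlan over NT the centred log2 ratio was 0.53 by fold enrichment, 0.04 by normalised tag count and -0.62 by tags per kb of peak. The ratio of FK506 to curdlan in normalised tag count was 0.706 (95% interval from 0.667 to 0.747), and 3.4% of 11277 genes had a ratio as low. The centred log2 ratio of fold enrichment for FK506 over curdlan, in contrast, was -0.11. By tags per kb of peak it was 0.18, in the opposite direction, since the called peak was shorter with FK506.

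Tnfsf4 and Tnfsf18 encode the OX40 and GITR ligands, both of them T cell costimulators, and lie on the plus strand of chromosome 1. Tnfsf4 spans 163325581 to 163348337 and Tnfsf18 163424786 to 163435421, with 76.4 kb and 0 NFATc2 summits between them. Tnfsf4 had a single intronic site, 16748 bp from the TSS, with 23 tags (13.0-fold enrichment, p-value 2.1e-07). Tnfsf18 had an intronic site of 50 tags 5672 bp from the TSS, whose fold enrichment of 4.23 was the lowest of the 9438 peaks. The intronic Tnfsf4 site was also within 100 kb of Tnfsf18. The 6 remaining sites of Tnfsf18 lay beyond the gene, on the side towards Fasl, the gene of Fas ligand, and the one 22926 bp from the TSS was the strongest, with 152 tags (30.0-fold enrichment, p-value 2.3e-47). Those farther out, from 25621 to 65951 bp, had 23 to 100 tags. No H3K4me3 peak was called at Tnfsf4 or Tnfsf18 in any list, and the nearest peaks were 143.0 to 143.4 kb and 118.8 kb from their TSSs. A gene without a called peak had signal under the threshold of the list, which is not the same as no mark.

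Tnfsf9, the gene of the ligand of the costimulatory receptor Tnfrsf9, spans 57244808 to 57247180 on the plus strand of chromosome 17. The nearest NFATc2 summit lay 3591 bp from its TSS, beyond the end of the gene, with 205 tags (14.7-fold enrichment, p-value 6.6e-09). A second lay at 7795 bp with 87 tags. The nearest protein-coding TSS to both was that of Gm11110, a gene model that starts within Tnfsf9. The H3K4me3 peak over Tnfsf9 had 2503 tags in NT, 3601 with curdlan and 3275 with FK506, with normalised tag counts of 150, 169 and 168. The ratio of FK506 to curdlan was 0.995 with an interval from 0.949 to 1.04. The centred log2 ratio of fold enrichment was -0.15 for curdlan over NT and -0.10 for FK506 over curdlan.

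Tnfsf13b encodes BAFF, a survival factor of B cells, and spans 10006843 to 10035441 on the plus strand of chromosome 8. Its only NFATc2 site within 100 kb was intronic, 24462 bp from the TSS, with 58 tags (18.8-fold enrichment, p-value 1.9e-14). Its H3K4me3 peak had 761 tags in NT, 706 with curdlan and 660 with FK506, with normalised tag counts of 45.7, 33.2 and 33.9. The centred log2 ratio of fold enrichment was -0.48 for curdlan over NT and -0.41 for FK506 over curdlan, and the ratio of normalised tag counts for FK506 over curdlan was 1.02 (95% interval from 0.919 to 1.14).

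**Figure D4:**
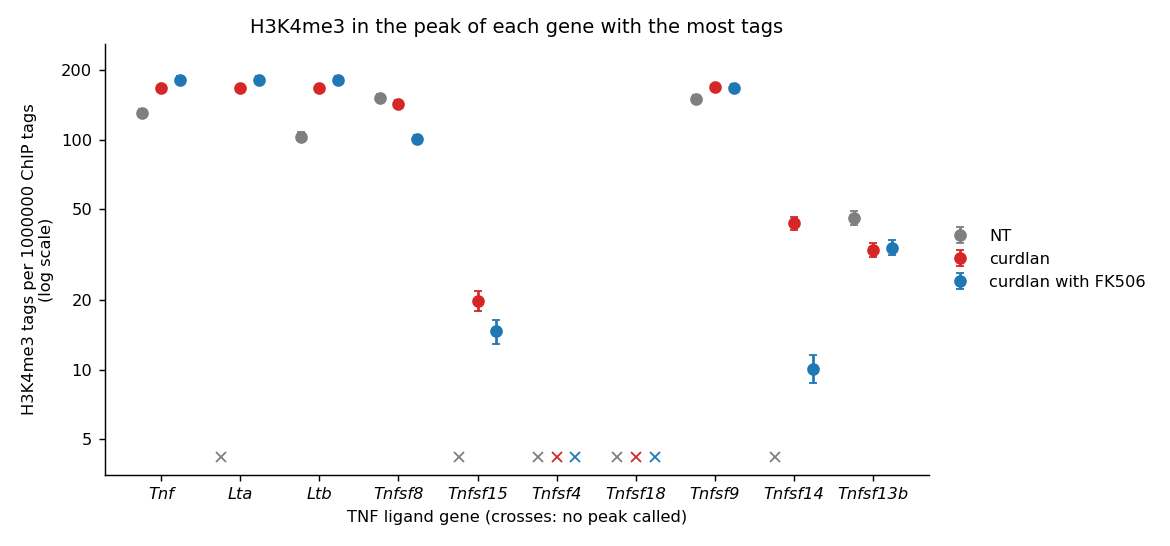
H3K4me3 tags per 1000000 ChIP tags (y axis, log scale) in the peak with the most tags of each ligand gene (x axis) in NT (grey), curdlan (red) and curdlan with FK506 (blue); bars are 95% Poisson intervals from 1 library each, crosses mark genes with no called peak, and Tnf, Lta and Ltb share 1 peak in the stimulated conditions. Tnfsf14 stands at 43.4 with curdlan and 10.1 with FK506, while Tnfsf9 stays between 150 and 169.

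Across the 10 genes, an H3K4me3 peak was called at 5 in NT, against 51.5% of protein-coding genes, at 8 with curdlan, against 51.2%, and at 8 with FK506, against 51.1%. A gain with curdlan was a peak where NT had none or a centred fold enrichment at least 2-fold higher, and 2.76% of protein-coding genes met it. Of the ligand genes Lta, Tnfsf15 and Tnfsf14 met it, all of them because no NT peak was assigned to the gene. Lta met it only through the merged peak, which did not reach its TSS. That region was already marked in NT, up to 3 bp from Lta, with a normalised tag count of 233 against 167 with curdlan. Of 147 genes with a peak assigned with curdlan and none in NT, 79 also had one with FK506, and all 3 ligand genes were of that kind. The 147 had a median of 89 tags, and by tags Tnfsf14 was rank 9 and Tnfsf15 rank 24. Lta was rank 1, but on the tags of the merged peak over Ltb and Tnf. The call of a lower mark with FK506, defined in the same way, was met by 2.83% of genes and by 1 of the 10, Tnfsf14. Among the ligand genes with a peak in both lists, the median centred log2 ratio was -0.29 for curdlan over NT and -0.34 for FK506 over curdlan, where the median of all genes is 0 by construction. With the peak shared by Tnf, Lta and Ltb counted once, the latter was -0.31. By normalised tag count the medians were 0.30 and 0.06 (-0.18 with the shared peak counted once), so neither had a stable sign. In the 13 ratios of single genes, the shared peak was counted for each of Tnf, Lta and Ltb for FK506 over curdlan. Only those of Tnfsf14 and Tnfsf15 for FK506 over curdlan kept their sign by tag count, tag count per kb and without centring. By tag count per kb, Tnfsf15 was only -0.07, against -1.31 for Tnfsf14.

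**Figure D5:**
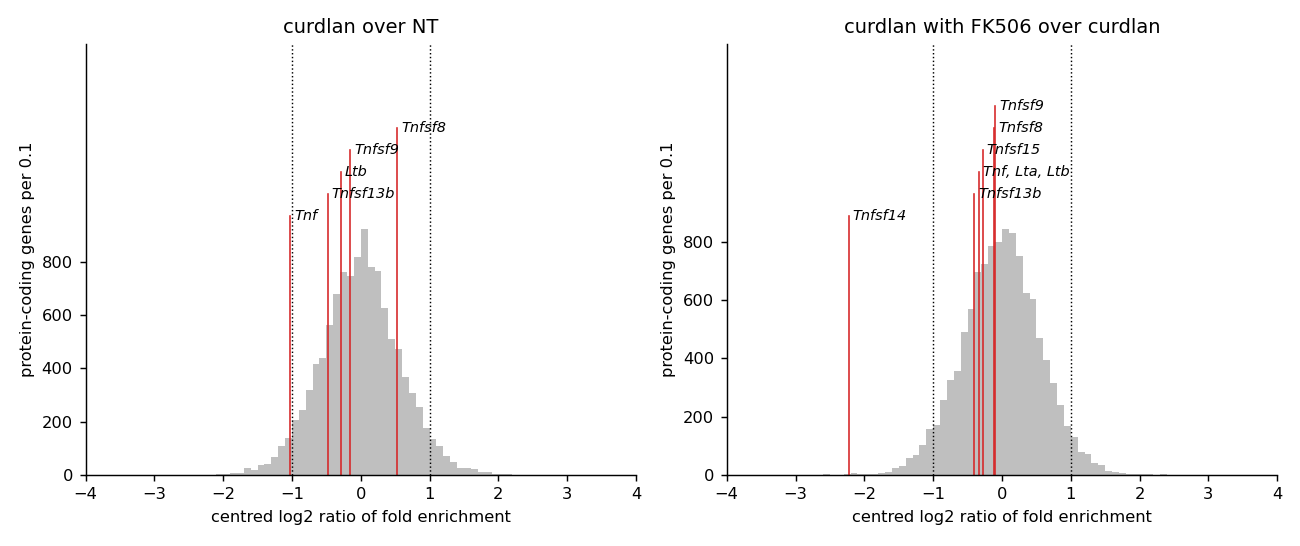
Number of protein-coding genes (y axis, per 0.1) by the centred log2 ratio of H3K4me3 fold enrichment (x axis) for curdlan over NT (left) and curdlan with FK506 over curdlan (right), with ligand genes that have a peak in both lists as red lines whose height has no meaning; dotted lines mark a 2-fold change. Tnfsf14, at -2.23 on the right, lies apart from the other ligand genes, and Tnf, at -1.03 on the left, is compared with the merged peak.

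The overlap of the NFATc2 peaks with the mark was near that of the whole list. An H3K4me3 peak overlapped 7 of the 36 in NT, 10 with curdlan and 8 with FK506, against 25.4%, 24.9% and 24.1% of all NFATc2 peaks. An overlap with curdlan but not in NT was found at 4 of the 36, against 2.36% of all. These were the site at the Tnfsf15 TSS, the site at the Tnfsf14 TSS, the site at the 3′ end of Tnfsf14 and the intronic Tnfsf8 site 6970 bp from its TSS. The H3K4me3 peak at the 3′ end of Tnfsf14 had 141 tags and an FDR of 16.5%. The peak over the intronic Tnfsf8 site was also called in NT, where it was shorter and did not reach the site. With FK506 a peak still overlapped the sites at the Tnfsf15 and Tnfsf14 TSSs, and none overlapped the 3′ Tnfsf14 site or the intronic Tnfsf8 site. Near Tnf, the site of 233 tags that lay 18147 bp upstream was overlapped by an H3K4me3 peak of 3121 bp in NT, 6840 bp with curdlan and 5712 bp with FK506. Its normalised tag count was 27.8, 53.3 and 36.2, its normalised count per kb 8.90, 7.79 and 6.34 and its fold enrichment 17.5, 22.1 and 27.7, so the order of the conditions depended on the measure.

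The other ligands of the superfamily in the annotation, Tnfsf10, Tnfsf11, Tnfsf12, Tnfsf13, Fasl, Cd40lg, Cd70 and Eda, were set beside these genes. Of these 8, 5 had an NFATc2 summit within 100 kb and 0 within 10 kb, against 55.4% and 16.3% of all protein-coding genes. A mark was called at 3 in NT, 4 with curdlan and 3 with FK506, against 51.5%, 51.2% and 51.1%. Gains were called at Cd70 and Tnfsf13, the gene of APRIL. Cd70 had a peak with curdlan only, of 139 tags with an FDR of 8.11%. The peak counted for Tnfsf13 had a centred log2 ratio of fold enrichment of 1.10, but its normalised tag count was 32.0 in NT and 38.6 with curdlan. That peak did not cover the Tnfsf13 TSS in any list, and its summit lay 3960 to 4000 bp downstream. A lower mark with FK506 was called at Cd70 and Tnfsf10, the gene of TRAIL, which had a centred log2 ratio of -1.44 and normalised tag counts of 11.7 with curdlan and 8.89 with FK506.

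Of 12 receptor genes of the ligands, 11 had an NFATc2 summit within 100 kb, 6 within 10 kb and 1, Tnfrsf1a, the gene of the main TNF receptor, within 1 kb. The shares of all protein-coding genes were 55.4%, 16.3% and 5.29%. A mark was called at 8 of the 12 in each list, against 51.1% to 51.5% of protein-coding genes. With curdlan 0 of the 12 gained it, against 2.76%. Tnfrsf18, the GITR gene, was called lower with FK506, at a centred log2 ratio of -1.18 and normalised tag counts of 10.2 with curdlan and 8.89 with FK506. Tnfrsf13c, the gene of the BAFF receptor, chosen after its values were seen, was just outside the calls by fold enrichment, at 0.99 for curdlan over NT and -0.85 for FK506 over curdlan. Its normalised tag count was 11.4 in NT, 18.2 with curdlan and 7.04 with FK506, a ratio of FK506 to curdlan of 0.386 (95% interval from 0.318 to 0.469), while by tags per kb the centred log2 ratios were 0.11 and -0.28. The median centred log2 ratio of the receptors was 0.02 for curdlan over NT and -0.15 for FK506 over curdlan.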

How the data were processed

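D1 cells were profiled by ChIP-seq for NFATc2-V5 (curdlan, 30 min) and H3K4me3 (NT, curdlan 2 h, curdlan with FK506 2 h), with 1 ChIP and 1 input library each. Reads were mapped by the authors with bowtie to mm9. The authors then ran MACS (1.4.2 in the file headers) on each library against its input, with 1 tag kept per position and a p-value threshold of 1e-05. The deposited lists give a count of tags per peak, not normalized. The authors' p-value is a score, −log10 p multiplied by 10 and limited to 3100. The deposited fold enrichment is a ratio to the local input background, and the deposited FDR is in percent. The input libraries entered only through that peak calling. The FK506 dose of these libraries is not given in the sources used here.

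Genes and TSSs came from GENCODE vM1 (Ensembl 65) on NCBI mouse build 37, the same assembly as mm9. Summits were counted within 100 kb of a TSS, and H3K4me3 peaks were assigned with an overlap of at least 1 bp with the gene or the 1 kb around a TSS. Normalised tag counts, per 1000000 ChIP tags, used the header totals. The ligand genes and the lists of other ligands, receptors and markers were chosen with earlier results of these data known, and every ligand of the list is named in the text. Motifs were searched on both strands. Alternatives were the p-value, the windows, the measure of change, centring and the fold threshold. The functions were tested on simulated data, and 6 of 6 tests passed. The tools were matplotlib 3.10.9, scipy 1.17.1, pandas 2.3.3, numpy 2.4.6 and Python 3.11.15.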

Additional observations from a re-analysis of the deposited data

How the results depend on the processing

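The number of NFATc2 summits at the 10 genes was 36, and it was 22 with a p-value of 1e-10 or less, 23 within 30 kb and 13 within 10 kb. For Tnf the centred log2 ratio of curdlan over NT was -1.03 by fold enrichment, and it was 0.48 by normalised tag count and 0.49 by normalised tag count summed over the peaks of the gene, which take in the merged peak. Of 52 values for single genes under the other measures or without centring, 27 had the opposite sign to the main value. These came from 11 of 13 ratios. For FK506 over curdlan, the ratios of Tnf, Lta and Ltb are those of 1 shared peak with the same values, counted for each gene. The ratios of FK506 over curdlan of Tnfsf14 and Tnfsf15 were the 2 without such a change, but Tnfsf15 was only -0.07 by tags per kb. Tnfsf14 was the 1 gene called lower with FK506 under each of the 7 alternatives to that call. Lta, Tnfsf15 and Tnfsf14 were called gained because no NT peak was assigned to them, which the measure, centring and fold threshold cannot change. They were also called with a p-value of 1e-10 or less. Tnfsf8 was called gained as well without centring. With peaks within 1 kb of a TSS only, a rule chosen after seeing the data, Lta was lost and 2 genes were called gained. The number of all genes called gained was 616, and it was 339 by normalised tag count, 184 by tags per kb, 298 by summed tags, 3567 without centring and 1783 at 1.5-fold. The number called lower with FK506 was 632, and it was 230, 177, 217, 1263 and 1823 in the same order. No paired analysis was possible because each condition had 1 library. With 1 library per condition the spread between cultures is unknown. A peak list holds no value below its threshold, which is a MACS p-value of 1e-05 and not a number of tags. The H3K4me3 peaks with the fewest tags had 18 to 26. At Tnfsf14, however, a curdlan peak of 141 tags was close to the threshold, with a MACS p-value of 6.8e-06. A gene without a peak may therefore have had more than 26 tags.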
